A study of Mus musculus with 6 samples.

Results

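The transcripts described here are those of 8 transcription factors known to keep the embryonic or fetal globin genes silent in red blood cells: Bcl11a, Zbtb7a, Klf1, Myb, Ikzf1, Nr2c1, Nr2c2 and Sox6. They were listed by name for that role, with earlier results of these data known, and all 8 were among the 48709 genes of the count table. All 8 also passed the filter on low counts, which left 12722 genes to test. RNA sequencing of poly(A) RNA was performed in G1E-ER4 cells, a mouse model of red cell maturation. The parental G1E line was made from embryonic stem cells without GATA1, the master regulator of the erythroid lineage, and is arrested for want of it. In the ER4 subline GATA1 is supplied as a chimera with part of the estrogen receptor (GATA-1-ER), which tamoxifen switches on. Both groups received tamoxifen for 28 h, and both were given a peptide at 10 μM from 2 h earlier. The CHD4-APR group received a peptide with the aggregation-prone region of the chromatin remodeler CHD4, and the CTRL group a stretch of alanines, each joined to the Tat sequence that carries it into cells. The comparison asked how gene expression during erythroid differentiation differed when this region of CHD4 was competed by the peptide. There were 3 libraries per group, and nothing in the labels says whether they came from separate cultures, so p-values measure the spread between these libraries, which may be technical. The tamoxifen concentration is 100 nM in the culture description and 100 μM in the description of the experiment. A single line with GATA1 supplied as a fusion limits the groups as a model of erythropoiesis.

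Globin genes are switched during development, with embryonic genes on first and adult genes later. In adult erythroid cells BCL11A, ZBTB7A and SOX6 repress the early beta-like genes, BCL11A and ZBTB7A partly through the nucleosome remodeling and deacetylase (NuRD) complex that holds CHD4. KLF1 activates the adult beta-globin gene and the genes for BCL11A and ZBTB7A, MYB acts upstream of KLF1, IKZF1 (Ikaros) works with GATA1 and NuRD at the beta-globin locus, and the orphan nuclear receptors TR2 (Nr2c1) and TR4 (Nr2c2) bind direct repeats in the embryonic promoters. Mice have no fetal globin gene of their own, and their embryonic genes Hbb-y, Hbb-bh1 and Hba-x take that place here.

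The libraries held 41687482 to 49784177 counts, and no pair of replicates agreed within sampling noise. Of the 7 erythroid markers examined, all were detected, with a summed level between 34633 and 36700 normalized CPM (counts scaled to one library size) in the CTRL group and between 30212 and 31926 in the CHD4-APR group, most of it globin. The summed level of 6 myeloid markers was 178 to 206 CPM in the CTRL group and 162 to 163 in the CHD4-APR libraries, nearly all of it Spi1, and Mpo and Ly6g were at 0 in every library. Spi1 had a log2 fold change of -0.24 (FDR 0.00131 by edgeR), or -0.091 (FDR 0.0763) with the length and GC correction described later. Csf1r did not pass (-0.10, FDR 0.619 by edgeR). Mast cell and lymphoid markers stayed under 1 CPM in sum in every library, and of 4 pluripotency markers Pou5f1, Nanog and Zfp42 were at 0, while Dppa5a had 6, 8 and 1 counts in the CTRL libraries and 0 in each CHD4-APR library. Of the markers of megakaryocytes, Itga2b, Gp9 and Pf4 came to 46.7 to 48.8 CPM in sum in the CTRL group and 39.9 to 45.7 in the CHD4-APR libraries, and Gp1bb and Ppbp were at 0 in every library. Gp9, for a platelet membrane glycoprotein, had 11.5, 12.1 and 10.6 CPM against 8.57, 9.57 and 9.59 (log2 fold change -0.31, FDR 0.00986 by edgeR, and -0.12, FDR 0.343, with the length and GC correction described later). Itga2b, the most abundant of the 3, was at 34.4 to 36.9 and 30.8 to 35.9 CPM (-0.097, FDR 0.252 by edgeR), and Pf4, with 7 to 23 counts per library, had a value of the opposite sign (0.44, FDR 0.458). The part of these differences in the results was not tested. In bulk RNA, fewer cells of a type and less RNA per cell cannot be told apart.

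The promoters of some of the regulators and of a target gene are shown first, because the letters that erythroid factors are known to recognize lie close to their starts. Sequences were taken from RefSeq on GRCm38.p6, which had 14 windows for the 8 genes, each from 250 bases before to 50 bases after a start, and only the stretch up to the first base of a GENCODE exon inside the window is printed. The GENCODE genes of Zbtb7a and Nr2c2 begin further upstream than the RefSeq starts, so that their stretches lie within the gene spans given with the values. Capitals mark matches on either strand to AGATAA or TGATAA (recognized by GATA1), CCNCNCCC (KLF1), TGACCA (BCL11A) and CCAAT (NF-Y). Where the capitals run on, matches overlap or adjoin, as TGACCA and CCAAT do in Hbb-y. Klf1 is shown as the most abundant regulator (chr8:84901732-84901927, plus strand). By log2 fold change without the length and GC correction, Zbtb7a differed least (chr10:81136021-81136270, plus strand) and Nr2c2 most (chr6:92092183-92092432, plus strand), an order that the correction changed. Hbb-y is shown as an embryonic target (chr7:103853217-103853457, minus strand).
Klf1: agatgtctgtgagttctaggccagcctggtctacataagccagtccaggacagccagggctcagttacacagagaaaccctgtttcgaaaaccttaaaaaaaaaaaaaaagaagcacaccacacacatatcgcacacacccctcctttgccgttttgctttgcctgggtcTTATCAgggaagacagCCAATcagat
Zbtb7a: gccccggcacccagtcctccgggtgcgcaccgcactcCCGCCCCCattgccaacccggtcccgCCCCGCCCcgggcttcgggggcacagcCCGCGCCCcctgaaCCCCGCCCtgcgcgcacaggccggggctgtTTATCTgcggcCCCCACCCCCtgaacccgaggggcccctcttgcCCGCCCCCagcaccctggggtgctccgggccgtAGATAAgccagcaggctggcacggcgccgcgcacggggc
Nr2c2: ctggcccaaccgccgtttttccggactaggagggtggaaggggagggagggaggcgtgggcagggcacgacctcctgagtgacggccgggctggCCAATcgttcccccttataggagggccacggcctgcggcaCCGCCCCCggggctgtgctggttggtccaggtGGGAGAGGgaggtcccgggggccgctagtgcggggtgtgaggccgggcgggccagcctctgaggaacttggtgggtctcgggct
Hbb-y: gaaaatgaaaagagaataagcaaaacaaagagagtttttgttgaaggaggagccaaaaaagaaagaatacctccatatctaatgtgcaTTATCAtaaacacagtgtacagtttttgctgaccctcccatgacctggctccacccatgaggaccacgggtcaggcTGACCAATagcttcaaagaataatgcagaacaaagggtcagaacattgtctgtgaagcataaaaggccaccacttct

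The Klf1 stretch held 1 GATA match and 1 CCAAT box, close together near its end. That of Zbtb7a held 2 GATA matches and 7 matches to the KLF1 letters, and that of Nr2c2 held 2 KLF1 matches, 1 CCAAT box and 0 GATA matches. Over the 14 windows of the regulators at their full length, GATA letters stood in 4 windows of 3 genes (Zbtb7a, Klf1 and Sox6), against 18.5% of all 32544 promoter windows, and KLF1 letters in 7 windows of 6 genes, against 49.7% of all windows. CCAAT stood in 7 of the 14 windows and in 37.4% of all. TGACCA, which the Hbb-y and Hba-x windows hold, stood in 0 of the 14 and in 13.6% of all. A perfect direct repeat of AGGTCA with 1 base between (DR1), the kind of element TR2 and TR4 bind, was in 0 of these windows and in 0.0399% of all. These matches describe the letters only.

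Between the CHD4-APR and CTRL libraries, 4 of the 8 regulators were higher (Nr2c2, Sox6, Ikzf1 and Bcl11a) and Klf1 was lower by edgeR's quasi-likelihood test (Benjamini-Hochberg adjusted p, here FDR, under 0.05 over all genes tested). The changes were small. Nr2c2 had the largest fold, 1.32, and Klf1 fell by 11.1%. Of all genes tested, 38.3% passed this test, 20.4% as higher and 17.8% as lower, so that the 5 of 8 regulators stand against a background where a call is common. That background differed with the length and GC content of the genes, as given below. The libraries of the groups did not overlap for 6 of the 8 regulators, 5 of them higher, against 49.9% of all genes and 25% of all genes as higher. The median log2 fold change was 0.18 over the 8 regulators and -0.012 over all genes.

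The calls did not outlast a correction for the length and GC content of the genes, except that the call of Nr2c2 depended on the version used. Across all tested genes the difference between the groups went with both properties. The median log2 fold change was -0.15 in the shortest quartile of the genes (up to 1959 exonic bases) and 0.16 in the longest (from 6016 bases), and it was 0.20 in the quartile poorest in GC and -0.15 in the richest. Without the correction, 46.4% of the longest quartile passed as higher and 5.93% as lower, against 4.79% and 25.7% of the shortest. In the quartile poorest in GC the shares were 44.1% and 4.67%, and in the richest 2.97% and 32.8%. In length, most regulators sit at one end of this trend. Bcl11a, Zbtb7a, Myb, Nr2c2 and Sox6 lie in the longest quartile, and Klf1, with 1530 exonic bases and 61.0% GC, lies in the shortest quartile and the GC-richest one. In GC content, Bcl11a, Myb, Ikzf1, Nr2c2 and Sox6 lie in the second poorest quartile, where the median was 0.046, Nr2c1 lies in the poorest and Zbtb7a in the richest. When the trend of each library with length and GC content was removed, 0 of the 8 regulators passed edgeR's test as higher or lower, against 27.6% of all genes (11.7% as higher and 15.9% as lower). The median log2 fold change of the 8 was then 0.062, against -0.024 over all genes. At an unadjusted p under 0.05 there were 2, Nr2c2 as higher and Bcl11a as lower, against 15.7% of all genes as higher and 22% as lower, and the lowest FDR was that of Nr2c2, 0.0552. DESeq2 and limma-voom, run without the correction, passed 3 and 4 as higher and 1 each as lower, where DESeq2 passed 39.3% of the genes to which it gave an adjusted p and limma-voom 20.3% of all genes as higher and 17.7% as lower. Such a correction also removes any change of the cells that goes with length or GC content, and these cannot be told apart here. How the RNA or the libraries came to differ in this way was not tested.

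**Figure D1:**
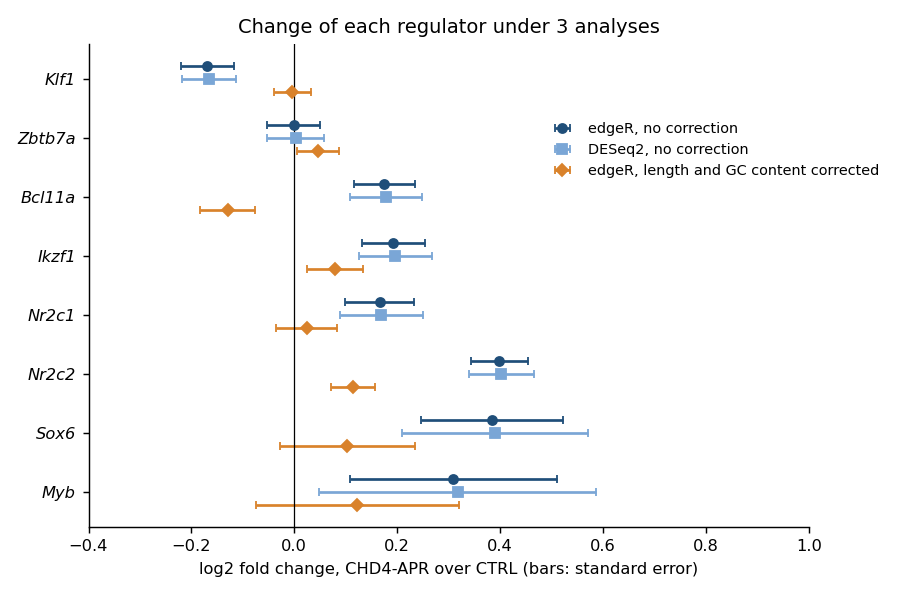
The log2 fold change of each regulator (horizontal axis, CHD4-APR over CTRL) is shown with its standard error (SE) in edgeR, in DESeq2 and in edgeR after correction for length and GC content. The uncorrected estimates of both tools nearly coincide, with Nr2c2 at 0.40 in each, whereas the corrected ones lie nearer 0 in all regulators except Zbtb7a, and that of Bcl11a lies below 0 at -0.13.

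Klf1 (ENSMUSG00000054191, GRCm38 chr8:84901928-84905291, plus strand) encodes the erythroid Kruppel-like factor, which turns on adult beta-globin and much of the red cell program. It stood at 676, 580 and 616 normalized CPM in the CTRL group and at 560, 544 and 560 in the CHD4-APR libraries. Every CHD4-APR library was below every CTRL library, by a narrow margin to CTRL replicate 2. The means were 624 ± 48.5 and 555 ± 9.21 (SD, n = 3), which is -0.17 on the log2 scale (standard error, SE, 0.051, FDR 0.0150 by edgeR). Without CTRL replicate 1, the highest library, the log2 fold change was -0.11, and without CHD4-APR replicate 2 the FDR was 0.0788. After the length and GC correction the log2 fold change was -0.0036 (SE 0.036, FDR 0.956). Klf1 is thus the regulator whose estimate came nearest to 0 under the correction.

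Zbtb7a (ENSMUSG00000035011, chr10:81135220-81152995, plus strand) encodes LRF, a zinc finger repressor of fetal globin. Its CTRL libraries had 149, 132 and 140 CPM and its CHD4-APR libraries 147, 136 and 137. The groups overlapped fully and the means were 140 ± 8.63 and 140 ± 6.35 (SD, n = 3). The fold ran from 0.927 to 1.08 in its 95% interval (FDR 0.989 by edgeR). The GC content of Zbtb7a, 57.4%, was in the richest quartile and its exonic length, 6808 bases, in the longest, where the medians over all genes have opposite signs.

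Bcl11a (ENSMUSG00000000861, chr11:24078056-24174123, plus strand) encodes the zinc finger repressor that separates fetal from adult globin expression. It had 30.0, 32.2 and 31.4 CPM with the CTRL peptide and 33.2, 36.7 and 35.8 CPM with the CHD4-APR peptide. All CHD4-APR libraries were higher, replicate 1 only slightly so. From 31.2 ± 1.09 to 35.2 ± 1.81 (SD, n = 3), it changed by 0.17 on the log2 scale (SE 0.059, FDR 0.0285 by edgeR). This call depended on single libraries, while the log2 fold change stayed between 0.15 and 0.22 when any 1 library was left out. Leaving out CTRL replicate 1 gave an FDR of 0.0712, and leaving out CTRL replicate 3 one of 0.0739. For CHD4-APR replicates 2 and 3 it came to 0.129 and 0.0793. After correction for length and GC content the sign turned, to -0.13 (SE 0.053, FDR 0.0850), so that these data give no direction for Bcl11a that holds under both analyses.

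Ikzf1 (ENSMUSG00000018654, chr11:11685003-11772926, plus strand) encodes Ikaros, a zinc finger protein of blood cells that recruits NuRD. Its CTRL libraries were at 27.7, 29.8 and 29.2 CPM and its CHD4-APR libraries at 34.6, 31.3 and 33.3. Again no CHD4-APR library fell within the CTRL range. The log2 fold change was 0.19 (SE 0.060, FDR 0.0189 by edgeR), from 28.9 ± 1.08 to 33.1 ± 1.68 (SD, n = 3). It was not past the test without CHD4-APR replicate 1 (FDR 0.0800) or with the correction (0.079, SE 0.054, FDR 0.311).

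Sox6 (ENSMUSG00000051910, chr7:115470872-116038796, minus strand) encodes an HMG-box factor that cooperates with BCL11A. It was far less abundant, with 105, 167 and 122 counts in the CTRL group and 165, 172 and 181 in the CHD4-APR libraries, or 2.48, 3.38 and 2.95 CPM against 3.69, 4.02 and 3.83. The CHD4-APR libraries were all higher, while the CTRL libraries differed widely among themselves. The log2 fold change was 0.38 (SE 0.14, FDR 0.0366 by edgeR), nearly that of Nr2c2 but with a larger error. DESeq2 gave an FDR of 0.0719. Leaving out CTRL replicate 1 gave an FDR of 0.143 by edgeR, and leaving out CTRL replicate 3 one of 0.0833. For CHD4-APR replicates 1, 2 and 3 it came to 0.0510, 0.107 and 0.0679. With the correction the log2 fold change was 0.10 (SE 0.13, FDR 0.613).

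Myb (ENSMUSG00000019982, chr10:21124935-21160984, minus strand) encodes a factor of proliferating progenitors that GATA1 turns down during differentiation. Only 45, 78 and 52 counts with the CTRL peptide and 67, 77 and 74 with the CHD4-APR peptide were assigned to it. The groups overlapped at 1.06 to 1.58 and 1.50 to 1.80 CPM. Its log2 fold change of 0.31 had an SE of 0.20 (FDR 0.249 by edgeR), and the 95% interval of the fold ran from 0.922 to 1.67. The log2 fold change was 0.18 when CTRL replicate 1 was left out and 0.48 when CTRL replicate 2 was (FDR 0.563 and 0.110). A difference was not detected, and a fold anywhere in that interval remains possible.

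**Figure D2:**
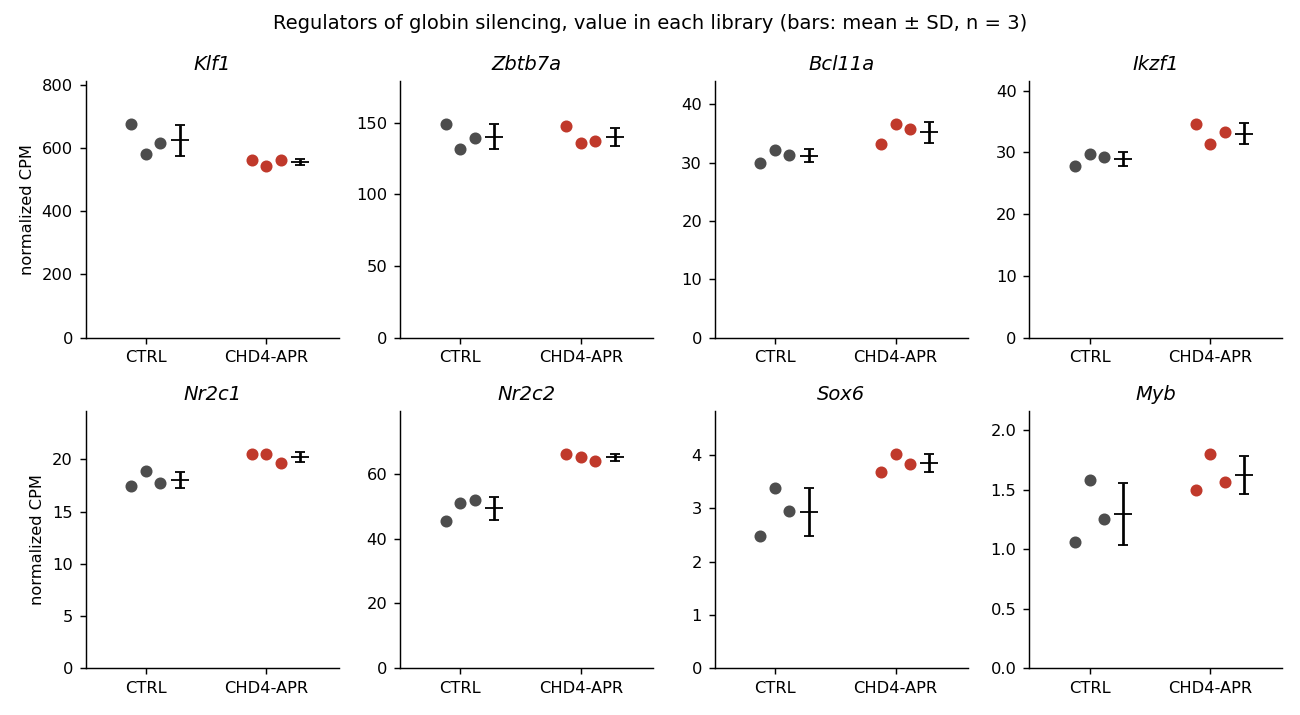
Normalized CPM of each regulator is plotted on a linear axis from 0 for the 3 CTRL and 3 CHD4-APR libraries, with the mean and SD beside them. The groups separate for 6 regulators, among them Nr2c2 (45.4 to 51.9 against 64.0 to 66.2 CPM), and overlap for Zbtb7a and Myb.

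The orphan nuclear receptors TR2 and TR4 form a heterodimer at the embryonic globin promoters. Nr2c2 (ENSMUSG00000005893, chr6:92091390-92174294, plus strand), for TR4, had 45.4, 51.1 and 51.9 CPM in the CTRL group and 66.2, 65.4 and 64.0 in the CHD4-APR libraries. The gap between the groups was wider than the spread within either. From 49.4 ± 3.55 to 65.2 ± 1.15 (SD, n = 3), the log2 fold change was 0.40 (SE 0.055, FDR 4.51e-05 by edgeR), and the FDR stayed between 2.97e-05 and 0.000293 when any 1 library was left out. With the length and GC correction it was 0.11 (SE 0.042, FDR 0.0552). The corrected value thus fell just short of the threshold. It passed (FDR 0.0412) when the replicate number was also a block, though these numbers did not pair the libraries. It also passed (FDR 0.0453) with length and GC content smoothed as separate terms, but not with the length of the longest transcript (FDR 0.0733). Nr2c2 is the longest of these genes at 14935 exonic bases, of which 4590 are shared with Mrps25, a gene of the opposite strand. Mrps25, for a mitochondrial ribosomal protein, went the other way, from 19.6 ± 0.383 to 16.3 ± 0.490 CPM (SD, n = 3; log2 fold change -0.27, SE 0.066, FDR 0.00449 by edgeR). The kit does not mark strand, so reads of the shared bases cannot be told apart.

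Nr2c1 (ENSMUSG00000005897, chr10:94148023-94197211, plus strand), for TR2, had 17.4, 18.9 and 17.8 CPM in the CTRL group and 20.5, 20.5 and 19.7 in the CHD4-APR libraries. The groups did not overlap, yet the log2 fold change of 0.17 (SE 0.066) did not pass the test (FDR 0.0589 by edgeR). It did without CTRL replicate 2 (0.20, FDR 0.0376). With the correction it was 0.025 (SE 0.059, FDR 0.806). Whether TR2 and TR4 differed in their change was not tested.

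The levels of the 8 transcripts, as normalized CPM per kilobase of exon, spanned more than 3 orders of magnitude. Klf1 led with 408 ± 31.7 (SD, n = 3) in the CTRL libraries, followed by Zbtb7a with 20.6 ± 1.27. Ikzf1 (5.01), Nr2c1 (3.91), Nr2c2 (3.31) and Bcl11a (2.37) formed a middle group, and Sox6 (0.198) and Myb (0.145) were at the bottom. In the CTRL libraries neighbours in this order had separate ranges, except Sox6 and Myb. In the CHD4-APR libraries Nr2c1 and Nr2c2 overlapped at 4.39 and 4.37, and the order was otherwise the same, with Klf1 at 363 ± 6.02 and Myb at 0.182. The order within the middle group depended on the length used. With the exonic bases shared with other genes taken out of the length, Nr2c2 was at 4.81 in the CTRL and 6.34 in the CHD4-APR libraries. Reads on those bases were not removed, so these values may be too high. With the longest transcript in place of all exons the CTRL levels were 6.47 for Nr2c2, 5.60 for Ikzf1, 5.21 for Bcl11a and 4.83 for Nr2c1, and Sox6 (0.339) and Myb (0.352) changed places.

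**Figure D3:**
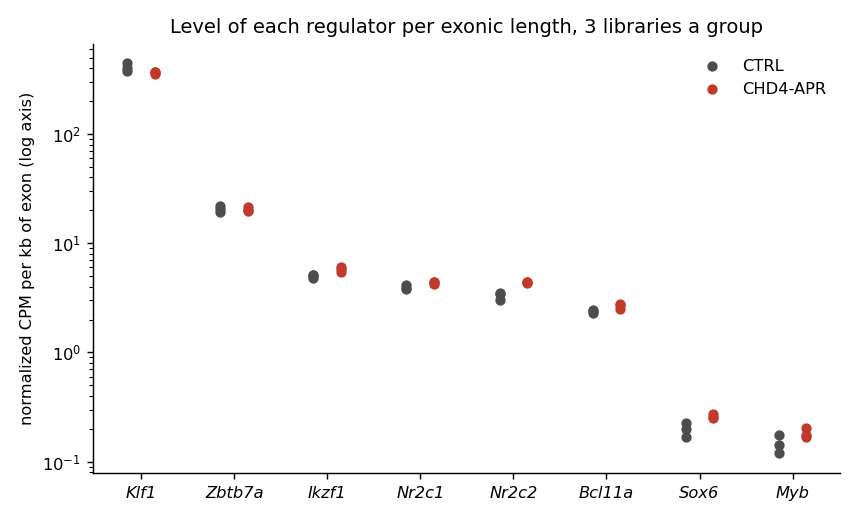
Each point is the level of a regulator in 1 library, in normalized CPM per kilobase of exon on a log axis, for the 3 CTRL and 3 CHD4-APR libraries. Klf1 stands apart at the top, between 356 and 442, the middle genes lie between 2.28 and 5.99, and Sox6 and Myb lie at 0.271 or lower.

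The genes that these factors regulate were examined next. In all lists below, calls with the length and GC correction stand against 11.7% of all genes as higher and 15.9% as lower. Of 14 globin genes and names, 9 could be tested, 3 had too few counts and 2 were not matched. The adult genes fell: Hbb-bs from 24751 ± 1448 to 19739 ± 1063 CPM (log2 fold change -0.33, FDR 0.000168), Hbb-bt (-0.32, FDR 9.69e-05), Hba-a1 (-0.25, FDR 0.000839) and Hba-a2 (-0.24, FDR 0.000972), all by edgeR with n = 3 per group. The 2 genes of each adult pair are near copies of each other, so their separate values are uncertain. The embryonic genes did not pass the test. Hbb-y, for embryonic epsilon-y globin, had 2.95, 1.96 and 1.28 CPM in the CTRL group and 1.19, 1.31 and 1.93 in the CHD4-APR libraries (log2 fold change -0.48, SE 0.26, FDR 0.163). Hbb-bh1 had 40.7, 33.6 and 34.8 CPM against 34.8, 27.7 and 37.7 (-0.12, SE 0.094, FDR 0.342). Hba-x, for zeta globin, had 12.5, 10.7 and 10.9 CPM against 11.0, 11.6 and 13.6 (0.085, SE 0.094, FDR 0.511). For each of them the groups overlapped. The theta-like genes Hbq1b (0.013, FDR 0.901) and Hbq1a (-0.15, FDR 0.574) did not pass either. With the length and GC correction Hba-x (0.27, FDR 0.0212) and Hbq1b (0.20, FDR 0.0168) passed as higher and Hbb-bs and Hbb-bt (both -0.17, FDR 0.00435 and 0.00246) as lower, while Hba-a1 and Hba-a2 were not past the test.

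The share of the embryonic genes in the counts of Hbb-bs, Hbb-bt, Hbb-y, Hbb-bh1 and Hbb-bh2 needs no scaling between libraries. Hbb-bh0 and Hbb-bh3, with 0 to 5 counts in each library, were not in this total. Hbb-y and Hbb-bh1 together made up 0.113%, 0.0997% and 0.103% in the CTRL libraries. In the CHD4-APR libraries they made up 0.126%, 0.103% and 0.128%. CHD4-APR replicate 2 lay within the CTRL range and the others above it. The means were 0.105% ± 0.00703 and 0.119% ± 0.0138 (SD, n = 3; p = 0.2, two-sided exact permutation test over the libraries). The difference of 0.0143 percentage points was 0.0222 when CHD4-APR replicate 2 was left out, and ran from 0.00982 to 0.0182 when any other library was. The alpha-like total was that of Hba-x, Hba-a1 and Hba-a2, without the theta-like Hbq1a and Hbq1b. Hba-x made up 0.0447%, 0.0425% and 0.0422% of this total in the CTRL group and 0.0506%, 0.0527% and 0.0588% in the CHD4-APR libraries. These ranges did not overlap. The share was 1.25-fold higher with the CHD4-APR peptide (0.0431% ± 0.00139 against 0.0541% ± 0.00427, SD, n = 3), and p = 0.1 in the same exact test is the smallest that 3 libraries against 3 allow. Single-library 95% Wilson intervals, which cover counting error only, ran for example from 0.0411% to 0.0487% in CTRL replicate 1 and from 0.0464% to 0.0553% in CHD4-APR replicate 1. The adult counts in the denominator fell, as given above.

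**Figure D4:**
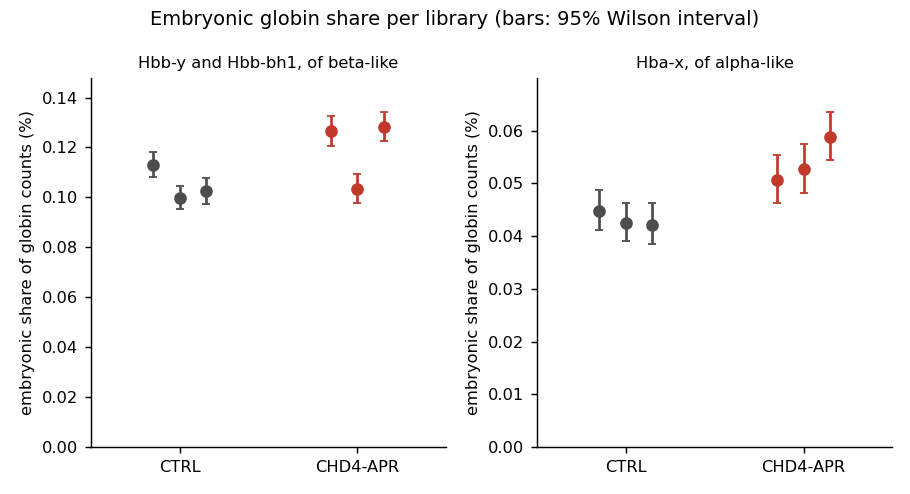
Embryonic globin counts are plotted for each library, with 95% Wilson intervals. Hbb-y and Hbb-bh1 (left) are a percent of the counts of the 5 beta-like genes in the total. Hba-x (right) is a percent of the counts of Hba-x, Hba-a1 and Hba-a2. The CHD4-APR libraries lie above all CTRL libraries on the right (0.0506% to 0.0588% against 0.0422% to 0.0447%) and overlap them on the left.

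The partners through which these factors repress were described from lists of genes. Of 14 NuRD subunits tested, edgeR called 2 higher and 3 lower (FDR under 0.05), which is 35.7% of them against 38.3% of all genes tested, and the median log2 fold change was 0.049, against -0.012 over all genes. With the length and GC correction this median was -0.030, against -0.024 over all genes. Gatad2b (0.21, FDR 0.00397) and the histone-binding Rbbp4 (0.19, FDR 0.00391) rose, and the methyl-CpG-binding protein gene Mbd3 (-0.27, FDR 0.00231), Cdk2ap1 (-0.20, FDR 0.00855) and Gatad2a (-0.16, FDR 0.00755) fell. With the correction Gatad2a passed again, at -0.13 (FDR 0.0127). Gatad2b (-0.038, FDR 0.551), Rbbp4 (-0.040, FDR 0.477), Cdk2ap1 (-0.049, FDR 0.558) and Mbd3 (-0.12, FDR 0.0691) did not. Mta1 (0.20, FDR 0.00122) and Mta2 (0.12, FDR 0.0175) as higher and Chd3 (-0.10, FDR 0.0323) as lower passed with it alone. Chd4 itself had 229, 237 and 227 CPM in the CTRL group and 240, 237 and 242 in the CHD4-APR libraries (0.054, SE 0.041, FDR 0.322 by edgeR).

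Of 9 corepressors that work with TR2 and TR4, all tested, 3 were higher and 0 lower (33.3%, against 38.3% of all genes), with a median of 0.11. Nrip1, which encodes the corepressor RIP140 of nuclear receptors, had 11.5, 14.7 and 13.8 CPM in the CTRL group and 23.8, 23.4 and 22.2 in the CHD4-APR libraries. Its log2 fold change of 0.79 (SE 0.083, FDR 3.61e-06 by edgeR) was larger than that of any regulator. Ncor1, a nuclear receptor corepressor, rose by 0.32 (FDR 3.63e-05) and Rcor1, the CoREST subunit that ties LSD1 to chromatin, by 0.31 (FDR 7.63e-05). After the length and GC correction all 3 still passed, at 0.48 (FDR 9.35e-05) for Nrip1, 0.23 (FDR 0.000277) for Rcor1 and 0.12 (FDR 0.0145) for Ncor1. The other 6, Dnmt1, Kdm1a, Hdac1, Hdac2, Hdac3 and Trim28, were not past the test without the correction, and with it Kdm1a (0.11, FDR 0.0375) passed as higher and Hdac3 (-0.15, FDR 0.0289) as lower. With the correction 4 of the 9 thus passed as higher and 1 as lower, against 11.7% and 15.9% of all genes.

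Of 25 other genes with a known part in globin silencing or its signalling, 23 could be tested, 5 were higher and 4 lower (39.1%, near the 38.3% of all genes), and their median was 0.057. This median was -0.040 with the correction, against -0.024 over all genes. Without the correction the median of the list was 0.024 when CTRL replicate 1 was left out, and 0.036 when CHD4-APR replicate 1 was. The deacetylase gene Sirt1 (0.46, FDR 0.000186), the heme-regulated repressor gene Bach1 (0.39, FDR 4.32e-05) and Foxo3 (0.17, FDR 0.00682) rose, and Atf4, an effector of the integrated stress response, fell by 0.24 on the log2 scale (FDR 0.00143). The remaining calls, named after their values were seen, were Pogz and Cul3 as higher and Ldb1, Prmt5 and Eif2ak1, the heme-regulated kinase HRI, as lower. With the correction Sirt1, Bach1 and Foxo3 still passed as higher, at 0.29, 0.25 and 0.15, and Eif2ak1 as lower, at -0.20 (FDR 0.000873). Cul3 (-0.16, FDR 0.00329) and Zfp410 (-0.18, FDR 0.00526) then passed as lower as well, against values of 0.13 and 0.11 without it, and Atf4, Pogz, Ldb1 and Prmt5 were not past the test. Nfia and Dnmt3a were at 0 counts in every library.

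Genes related in sequence to the regulators were mostly silent: 9 of 17 had too few counts, among them Bcl11b, Ikzf3, Sox5 and Klf2 at 0. Of the 8 tested, 4 were higher and 1 lower, against 20.4% and 17.8% of all genes tested, with a median of 0.23. Ikzf5 had 20.1, 24.8 and 23.4 CPM in the CTRL group and 36.6, 38.0 and 38.7 in the CHD4-APR libraries, a log2 fold change of 0.73 (SE 0.072, FDR 2.12e-06 by edgeR) that was 0.46 (FDR 3.29e-05) with the correction. Ikzf2 (0.54), Mybl1 (0.52) and Klf3 (0.43), a repressor that competes with KLF1, also rose, and Mybl2 fell by 0.17 on the log2 scale. Of these 4, Klf3 passed with the correction (0.17, FDR 0.00767), and Nr2f6 (0.16, FDR 0.0118) passed as higher with it alone.

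Of 16 tested genes known as KLF1 targets, 5 were higher and 2 lower (43.8%, against 38.3% of all genes), with a median of 0.036, while Klf1 was lower without the correction. Klf3, Xk (0.34, FDR 0.00141), Epb42 (0.34, FDR 0.000646), for a protein of the red cell membrane skeleton, and the transferrin receptor gene Tfrc (0.26, FDR 0.00390) rose, as did Bcl11a. The 2 lower genes, named after their values were seen, were Dmtn (-0.18) and Add2 (-0.18), both for proteins of the membrane skeleton. With the correction Klf3 (0.17), Epb42 (0.24), Dmtn (-0.23) and Add2 (-0.26) passed again in the same direction. Tfrc (-0.030, FDR 0.671), Xk (0.15, FDR 0.149) and Bcl11a did not, while E2f4 (0.15, FDR 0.0198), Slc4a1 (0.11, FDR 0.0344) and Kel (0.16, FDR 0.0247) passed as higher with it alone. Of 6 tested MYB targets, Ets2 (0.45, FDR 8.28e-05) and Myc (0.33, FDR 0.0486) rose and Klf1 fell, 3 of 6 where 38.3% of all genes passed, with a median of 0.16 (0.10 with the correction). With the correction Ets2 (0.45, FDR 9.34e-05) and Myc (0.43, FDR 0.0157) passed. The KLF1 list holds Bcl11a, Zbtb7a and Klf3 and the MYB list holds Klf1, so these counts include calls already given above.

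**Figure D5:**
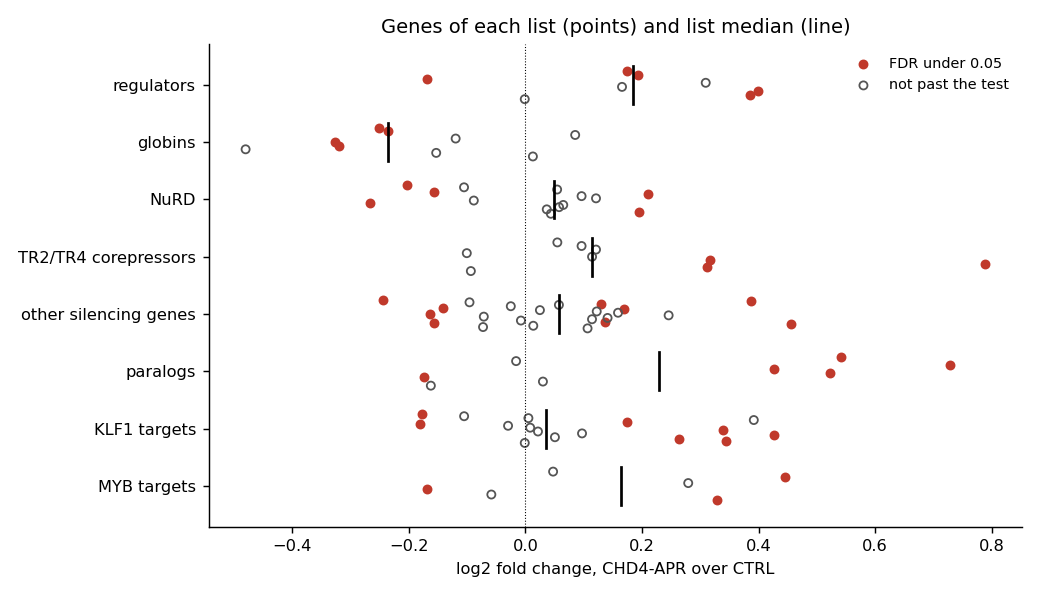
Each point is the log2 fold change (CHD4-APR over CTRL, no length or GC correction) of 1 tested gene, filled where its FDR by edgeR is under 0.05, and the black line is the median of its list. The adult globins lie left of 0, between -0.33 and -0.24, whereas the highest point among the TR2 and TR4 corepressors is Nrip1 at 0.79.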

How the data were processed

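Poly(A) RNA was sequenced in 6 libraries of mouse G1E-ER4 cells, 3 per group. Per the labels and the submitters' processing notes, reads were trimmed (cutadapt), aligned to GRCm38 (STAR 2.7.10a) and assigned to Ensembl genes (featureCounts) by the authors, who deposited raw counts. The strand setting and the handling of reads that match several genes are not given in the sources used here. The table has 2 more count columns that no sample label names, and these were left out. Genes were named and measured with GENCODE mouse release M21 (GRCm38), which held 48349 of the 48709 identifiers. Exonic length is the union of a gene's exons.

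Counts were filtered by filterByExpr, scaled by TMM and compared by edgeR 4.0.16 (quasi-likelihood F-test, R 4.3.3) without a block, with Benjamini-Hochberg adjustment over all genes tested and a threshold of 0.05. Normalized CPM use TMM library sizes. For the length and GC correction, each library's log2 CPM (prior count 2) was taken as its deviation from the gene's mean over the libraries. These deviations were smoothed on log exonic length and GC content with mgcv 1.9.3, and the trend entered edgeR as offsets. GC content is that of the longest transcript. Length and GC content were known for 12677 tested genes, and the other tested genes were fitted without a trend. DESeq2 1.42.0 and limma-voom (limma 3.58.1), other scalings and filters, fits without hemoglobin genes, a replicate block and leaving out each library were alternatives. Corrections with additive smooths or the longest transcript were added after the data were seen. The fits were also run on simulated data. The simulated trend followed the same length and GC content that the correction smooths on, so no conclusion was drawn from it. Embryonic shares were compared by exact permutation with scipy 1.17.1. All regulators and tested globin genes are named, and of each list Chd4 and up to 4 genes with the largest change among those with an FDR under 0.05 and a mean of at least 1 log2 CPM, or all where 5 or fewer passed. The members and lists were chosen with earlier results of these data known. One gene of the marker lists is not reported here.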

Additional observations from a re-analysis of the deposited data

How the results depend on the processing

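Of 304 results under an alternative setting, 233 were counted as unchanged. For a fold change this meant the same direction and the same side of the threshold. For a number of genes called it meant staying within a fixed ratio of the main value. For a list median or a share it meant moving by less than the spread between replicates. Most of the other results came from the length and GC correction. It gave 0 regulators as higher and 0 as lower, with log2 fold changes of -0.13 for Bcl11a, 0.046 for Zbtb7a, -0.0036 for Klf1, 0.079 for Ikzf1, 0.11 for Nr2c2 and 0.10 for Sox6, and 1486 genes higher among all tested. With the replicate block in the same correction 1 regulator (Nr2c2, FDR 0.0412) was higher and 0 lower, 1680 genes were higher, and the values were -0.13 for Bcl11a, 0.045 for Zbtb7a, -0.0032 for Klf1, 0.077 for Ikzf1 and 0.11 for Sox6. Additive smooths gave 1 higher (Nr2c2, FDR 0.0453), 0 lower, 1501 genes higher, and -0.12, 0.026, 0.0070, 0.082 and 0.11 for the same 5 genes. With the longest transcript they were -0.098, 0.016, -0.0062, 0.015 and 0.076, Nr2c2 was at 0.11 (FDR 0.0733), 0 regulators were higher and 0 lower, and 3132 genes passed, 1350 of them higher. List medians under the correction were -0.055 for the globins, -0.030 for NuRD, -0.040 for the other silencing genes and 0.10 for the MYB targets. The median over all genes was then -0.024. The correction removes the trend by construction.

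Zbtb7a changed sign around 0 with DESeq2 (0.0026), limma-voom (0.00029), size factors of DESeq2 in edgeR (0.0021), no filter (0.0019) and at least 10 counts in every library (0.00051). Sox6 was at 0.39 with DESeq2 (FDR 0.0719). When 1 library was left out, the number of regulators called higher ran from 2 to 5 and called lower from 0 to 1, while over all genes tested 2175 to 2613 were higher and 1528 to 2315 lower. The number of regulators called higher was 2 without CTRL replicate 1, CTRL replicate 3 or any CHD4-APR replicate. The log2 fold changes ran from 0.15 to 0.22 for Bcl11a, from -0.045 to 0.045 for Zbtb7a, from -0.22 to -0.11 for Klf1, from 0.16 to 0.23 for Ikzf1, from 0.14 to 0.20 for Nr2c1, from 0.18 to 0.48 for Myb and from 0.28 to 0.50 for Sox6. List medians ran from 0.085 to 0.14 for the TR2 and TR4 corepressors and from 0.024 to 0.075 for the other silencing genes. The cause was not tested, beyond the smaller number of libraries.

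With upper quartile scaling, 2419 genes were higher and 2601 lower, against 2601 and 2270 with TMM, and the calls of the regulators did not differ. Replicate numbers did not pair the libraries: same-numbered libraries correlated at 0.070, 0.055 and -0.035 in their deviations from the group means. The replicate block gave 5214 genes past the test and again 4 regulators higher and 1 lower. For the embryonic shares (differences of 0.0143 and 0.0109 percentage points) the mean of paired differences equals the difference of means by arithmetic, so pairing was not examined there. Leaving out 1 library gave 0.00982 to 0.0222 and 0.00854 to 0.0126. Counts of 45 to 78 per library stand behind Myb and 105 to 181 behind Sox6, and their standard errors are the largest of the 8.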
